A study of Rattus norvegicus with 129 samples.

Results

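Pregnenolone-16α-carbonitrile (PCN), a synthetic steroid, was compared with its vehicle in the livers of female rats after 5 daily doses. The comparison set rats 5511 to 5515 against rats 1511 to 1515, chosen by the numbers in the sample titles, and so used 10 of the 129 samples of the series, 5 in each group. All were Sprague-Dawley rats dosed by gavage. The first 5 received PCN at 100 mg/kg and the other 5 its vehicle, water with 0.5% methylcellulose and 1% Tween 80, and livers were collected 24 h after the last dose. Neither age nor genotype is stated in the labels beyond the strain. The same 90-array study held male rats on the same schedule, females sampled 6 h or 24 h after a single dose, and females given phenobarbital, also at 100 mg/kg, each with 5 rats per group. Total liver RNA of 1 rat was hybridised to each array, so a change in level may reflect RNA per cell or the number of cells of a type, and these cannot be told apart.

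PCN is the classic activator of the pregnane X receptor (PXR) of rodents. PXR is a nuclear receptor that binds DNA together with the retinoid X receptor and, once a ligand is bound, raises transcription of genes that oxidise, conjugate and export foreign compounds, steroids and bile acids. Cyp3a enzymes are its best known targets. Phenobarbital acts mainly through a related receptor, the constitutive androstane receptor (CAR), whose best known targets are the Cyp2b enzymes, and the target sets of both receptors overlap. Rat liver is strongly sex-dimorphic in its P450 enzymes, under control of the pattern of growth hormone release. The genes of both receptors were not analysed here.

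The level of a gene is given as the intensity of a probe set, which is linear and can be below 0. Intensities were quantile normalised over 89 arrays of the study. For folds and tests they were raised to 0 where negative and converted to log2(value + 16), so that no level lies under 4.00. A change is the difference of the group means on that scale, given ± its standard error, and it understates the change of dim genes. A gene was read from its brightest probe set that carries only that gene and was called where its limma p was under 0.05 after Benjamini-Hochberg adjustment across 8740 probe sets. Median intensity before normalisation was 33.2 to 58.3 over the 10 arrays, 22.8% to 25.2% of probe sets were at or under 0, and the mean correlation of an array with the others of its group was 0.957 to 0.971. Array 1003, a vehicle male at 6 h, held 42.4% of its values 1 row out of place and was left out of the fit.

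The sex labels were borne out by the vehicle rats. Cyp2c12, the female-specific steroid hydroxylase of rat liver, lay between 1943 and 2520 in vehicle females, against 256 to 388 in vehicle males. Cyp3a2, a male-specific enzyme in adult rats, was at or near 0 in vehicle females, with a highest value of 22.1, against 2356 to 3101 in vehicle males. None of 10 measured hepatocyte markers had a mean at or under 0 in both groups. Their summed intensity was 52780 to 57590 in PCN rats and 55020 to 57210 in vehicle rats. Of the 10, Apoa1 was called higher and 3 (Ass1, Cps1 and Fgb) lower, against 4.94% and 4.33% of all genes. The median change over these markers was -0.05.

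PCN changed 439 of 4736 genes (9.27%), of which 234 were higher (4.94%) and 205 lower (4.33%). A rise of at least 2-fold was seen for 81 genes and a fall of at least 2-fold for 55. The groups did not overlap for 358 genes (7.56%), among them 260 of those called. The median change over all genes was 0.00. Among the 15 largest rises were the P450 genes Cyp3a18, Cyp2b2 and Cyp3a2, the conjugation and export genes Gsta3 and Abcc3, and Akr7a3 and Gsr of the antioxidant response. Among the 15 largest falls were Sds of amino acid breakdown, the hormone carrier Serpina7, and the enzymes Cyp17a1, Cyp1a2 and Sult1a1. The 5 PCN rats were not all equally far from the vehicle rats over the genes called. Among the genes called higher, rat 5513 had the lowest value of the 5 for 97 of 234, and among those called lower it had the highest value for 87 of 205. The same was not counted over all genes or among the vehicle rats. The median difference of rat 5513 from the vehicle mean was 0.58 over the genes called higher, against 0.78 to 0.88 in the other 4 PCN rats. Without this rat 467 genes passed. When the spread was estimated from the 10 arrays alone, 256 genes passed, 218 of them shared with the 439.

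**Figure D1:**
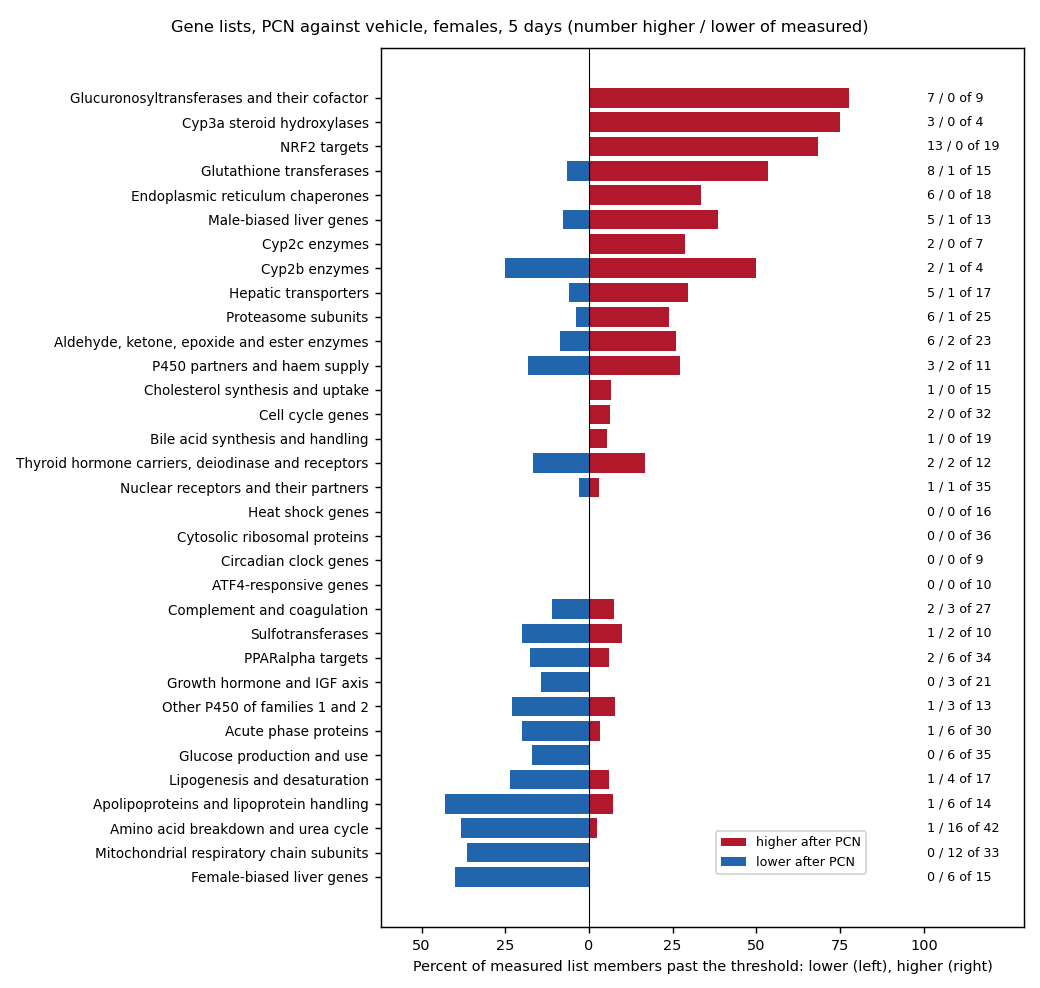
Share of the measured members of each of 33 gene lists that were called higher (right) or lower (left) in PCN females than in vehicle females at 5 days, with the counts at the right edge. Glucuronosyltransferases (7 of 9 higher), Cyp3a enzymes (3 of 4) and NRF2 targets (13 of 19) lie at the top, and female-biased genes (6 of 15 lower) and respiratory chain subunits (12 of 33 lower) at the bottom. The lists were chosen with earlier results of these data known.

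The Cyp3a enzymes hydroxylate steroids, bile acids and many drugs. Of 4 measured, 3 were higher and none lower, against 4.94% of all genes called higher. This list and those below were chosen with earlier results of these data known. Their shares therefore describe the lists and give no independent support. The promoters of 5 genes are shown here to set the letters of the promoter beside the response: 3 that rose, Cyp3a23-3a1, Cyp3a2 and Cyp3a18, the family member Cyp3a9, which did not pass, and Abcc2, described with the transporters. They are the RefSeq promoters of the GRCr8 assembly, from 250 bases before to 50 bases after the annotated start, on the strand of the gene. Capitals mark each match, on either strand, to the hexamers AGGTCA and AGTTCA, the core letters that nuclear receptors bind in pairs.
Cyp3a23-3a1: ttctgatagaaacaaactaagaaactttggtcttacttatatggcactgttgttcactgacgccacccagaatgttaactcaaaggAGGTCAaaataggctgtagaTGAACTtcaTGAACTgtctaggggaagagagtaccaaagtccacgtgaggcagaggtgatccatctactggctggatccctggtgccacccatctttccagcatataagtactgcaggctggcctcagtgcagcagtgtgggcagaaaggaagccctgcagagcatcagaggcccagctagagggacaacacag
Cyp3a2: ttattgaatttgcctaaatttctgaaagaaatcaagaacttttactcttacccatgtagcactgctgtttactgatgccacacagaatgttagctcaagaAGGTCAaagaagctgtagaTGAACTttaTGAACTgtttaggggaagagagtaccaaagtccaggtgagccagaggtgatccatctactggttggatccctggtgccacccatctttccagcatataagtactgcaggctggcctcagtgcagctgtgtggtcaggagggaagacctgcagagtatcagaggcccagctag
Cyp3a18: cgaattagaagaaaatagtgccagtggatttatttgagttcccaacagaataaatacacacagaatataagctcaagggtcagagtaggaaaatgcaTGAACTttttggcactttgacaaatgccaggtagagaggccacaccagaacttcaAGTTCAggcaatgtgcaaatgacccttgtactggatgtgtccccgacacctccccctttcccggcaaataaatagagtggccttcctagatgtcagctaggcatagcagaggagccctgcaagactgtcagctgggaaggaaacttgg
Cyp3a9: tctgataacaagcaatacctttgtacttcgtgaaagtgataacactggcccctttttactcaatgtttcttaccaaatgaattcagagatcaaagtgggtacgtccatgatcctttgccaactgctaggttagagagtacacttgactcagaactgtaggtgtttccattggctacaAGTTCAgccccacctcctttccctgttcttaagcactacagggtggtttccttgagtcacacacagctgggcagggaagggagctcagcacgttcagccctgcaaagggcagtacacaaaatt
Abcc2: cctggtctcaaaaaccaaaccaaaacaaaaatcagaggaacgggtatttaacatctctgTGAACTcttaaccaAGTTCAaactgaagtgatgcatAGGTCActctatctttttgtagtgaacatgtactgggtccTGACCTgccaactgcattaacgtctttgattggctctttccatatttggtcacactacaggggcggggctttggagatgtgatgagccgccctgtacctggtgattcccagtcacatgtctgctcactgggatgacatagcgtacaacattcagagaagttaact
In order, these lie at chr12:14398754-14399053 (minus strand), chr12:14343808-14344107 (minus strand), chr12:13994062-13994361 (plus strand), chr12:21960111-21960410 (minus strand) and chr1:252613625-252613924 (plus strand). Cyp3a23-3a1 and Cyp3a2 each hold a direct repeat of the hexamer with 3 bases between, the arrangement best known for PXR in Cyp3a promoters, starting 144 and 131 bases before the start. Abcc2 holds an everted repeat with 8 bases between, starting 191 bases before the start. The direct repeat was found in 14 of 33469 promoters (0.0418%) and the everted repeat in 5 (0.0149%), whereas a single hexamer was found in 27.9% of promoters. Among the 3879 genes with both a probe set and a promoter, 3 held the direct repeat (Cyp3a23-3a1, Cyp3a2 and the placental hormone gene Prl3b1) and Abcc2 alone the everted repeat. Cyp3a18 and Cyp3a9 showed single hexamers without these repeats in this window. Direct repeats with 4 bases between and everted repeats with 6, also searched on both strands, were in 6 and 2 of all promoters and in no gene called higher.

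Cyp3a18 had intensities of 1330, 1451, 1295, 1215 and 1254 in PCN rats 5511 to 5515, against 148, 59.0, 151, 71.3 and 52.3 in vehicle rats 1511 to 1515. Cyp3a18 is a steroid hydroxylase that is more abundant in males, and every PCN female was far above every vehicle female. With the pseudocount of 16 this was the largest rise among the genes that passed. On the log2 scale Cyp3a18 changed by 3.67 ± 0.29 (adjusted p = 4.9e-17). Cyp3a23-3a1 had intensities of 7685, 5224, 5556, 5556 and 6938 in PCN rats 5511 to 5515, against 2535, 2322, 3212, 1575 and 2698 in vehicle rats 1511 to 1515. The groups did not overlap for this enzyme, the classic PCN-inducible P450, although it was already bright in vehicle rats. Cyp3a23-3a1 thus differed by 1.34 ± 0.17 (adjusted p = 4.3e-09). Its 4 probe sets gave changes of 1.09 to 1.67, and all passed. Cyp3a2 had intensities of 55.9, 94.8, 126, 33.0 and 77.8 in PCN rats 5511 to 5515, against -2.44, -0.752, 22.1, -3.19 and -4.35 in vehicle rats 1511 to 1515. Rat 1513 was the only vehicle rat above 0, and all PCN rats were above it. This gave a change of 2.20 ± 0.34 (adjusted p = 6.1e-07). Even so, the PCN females stayed far under the vehicle males. Cyp3a9 had intensities of 693, 996, 1409, 1116 and 651 in PCN rats 5511 to 5515, against 741, 844, 1267, 1303 and 1586 in vehicle rats 1511 to 1515. For Cyp3a9 the groups overlapped fully, and the change was -0.24 ± 0.48 (adjusted p = 0.97). The sequences of these enzymes are alike, so a probe set of one may also pick up the transcript of another.

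**Figure D2:**
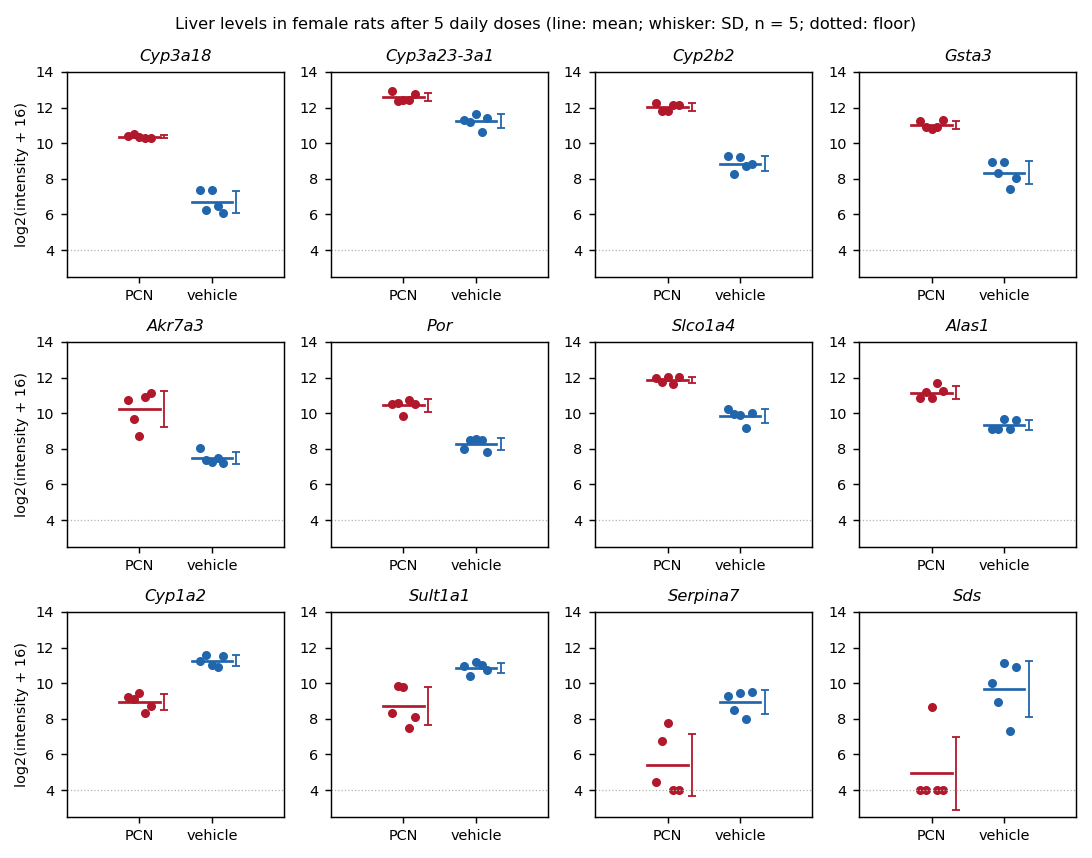
Levels of 12 genes as log2(intensity + 16) in each of 5 PCN females (red, left) and 5 vehicle females (blue, right), with the group mean as a line and the SD as a whisker. The PCN rats lie above the vehicle rats without overlap in the first 8 panels and below them in the last 4, apart from Sds, where PCN rat 5513 lies among the vehicle rats.

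Of 4 measured Cyp2b enzymes, 2 rose and 1 fell, against 4.94% and 4.33% of all genes. Cyp2b2 had intensities of 4961, 3516, 3534, 4530 and 4473 in PCN rats 5511 to 5515, against 597, 294, 578, 402 and 443 in vehicle rats 1511 to 1515. The groups did not overlap for Cyp2b2, the classic phenobarbital-inducible P450. A change of 3.17 ± 0.29 (adjusted p = 4.8e-14) resulted. Cyp2b15 was at 806 or more in every PCN rat, against 303 or less in every vehicle rat, a change of 1.93 ± 0.19. Cyp2b3, a constitutive member, fell, with a change of -0.45 ± 0.10. The groups overlapped, 1 of its 3 probe sets passed, and the call was lost with median scaling, with its probe sets averaged and under 3 other alternatives. In the Cyp2c family 2 of 7 rose. Cyp2c11 had intensities of 764, 894, 1199, 972 and 673 in PCN rats 5511 to 5515, against 162, 190, 409, 322 and 353 in vehicle rats 1511 to 1515. Cyp2c11, the main male-specific testosterone hydroxylase, was higher in every PCN female than in every vehicle female by this probe set. Its change was 1.65 ± 0.24 (adjusted p = 1.7e-07). Its other probe sets did not pass, with changes as low as -0.18, so the call rests on 1 of 3. Cyp2c22, which acts on retinoic acid, rose by 0.85 ± 0.21. Cyp2c12 did not pass, at -0.30 ± 0.42.

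Among 13 other P450 enzymes of families 1 and 2, 3 fell and 1 rose, against 4.33% and 4.94% of all genes. Cyp1a2 had intensities of 578, 533, 690, 299.9 and 408 in PCN rats 5511 to 5515, against 2447, 3062, 2095, 1933 and 2906 in vehicle rats 1511 to 1515. Cyp1a2 is an aryl hydrocarbon receptor target that oxidises aromatic amines and caffeine, and its groups were far apart. For Cyp1a2 the difference was -2.31 ± 0.22 (adjusted p = 1.7e-13). All 3 of its probe sets passed, with changes of -2.73 to -1.72. Cyp2d3 fell by 0.76 ± 0.10 and Cyp2d2 by 0.25 ± 0.08 on the log2 scale, both members of the family that oxidises many basic drugs. Cyp2a2, a male-biased testosterone hydroxylase, rose by 0.61 ± 0.16.

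P450 enzymes need electrons from the reductase Por and haem, whose synthesis starts with Alas1. Of 11 genes for these partners, 3 were higher and 2 lower, against 4.94% and 4.33% of all genes. Por had intensities of 1420, 1492, 903, 1720 and 1457 in PCN rats 5511 to 5515, against 240.1, 349.9, 359, 342 and 207 in vehicle rats 1511 to 1515. Every PCN rat was well above the highest vehicle rat, with rat 5513 lowest among them. The log2 difference was 2.16 ± 0.26 (adjusted p = 3.7e-10). All 3 probe sets of Por passed. Alas1 had intensities of 1805, 2356, 1815, 3238 and 2369 in PCN rats 5511 to 5515, against 548, 532, 814, 544 and 756 in vehicle rats 1511 to 1515. The groups were also apart for Alas1, with rat 5514 highest. The change was 1.82 ± 0.25 (adjusted p = 5.5e-08). Cytochrome b5 (Cyb5a), another electron donor, rose by 0.45 ± 0.10 by 1 of its 3 probe sets, and another gave a change of -0.29. The later haem enzymes Ppox and Alad fell, by 0.58 ± 0.18 and 0.41 ± 0.13, with groups that overlapped.

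Among 23 enzymes that act on aldehydes, ketones, epoxides and esters, 6 rose and 2 fell, against 4.94% and 4.33% of all genes. Akr7a3 had intensities of 1716, 796, 405, 1873 and 2246 in PCN rats 5511 to 5515, against 244, 149, 139, 163 and 130.2 in vehicle rats 1511 to 1515. Akr7a3 reduces the dialdehyde of aflatoxin, and rat 5513 was the lowest of the PCN rats yet above all vehicle rats. On the log2 scale Akr7a3 changed by 2.77 ± 0.29 (adjusted p = 5.9e-12). Aldh1a1, a retinaldehyde dehydrogenase, rose by 1.70 ± 0.25, the epoxide hydrolase Ephx1 by 1.60 ± 0.15 and the quinone reductase Nqo1 by 1.57 ± 0.40. For Nqo1 the lowest PCN rat, at 329, was under the highest vehicle rat, at 352. Fmo1 had intensities of 51.6, 91.2, 450.5, 8.12 and 40.2 in PCN rats 5511 to 5515, against 467, 386, 422, 254 and 202 in vehicle rats 1511 to 1515. The monooxygenase Fmo1 was under the vehicle rats in 4 of the 5 PCN rats, whereas rat 5513 was at the level of the vehicle group. Fmo1 thus differed by -2.02 ± 0.37 (adjusted p = 3.4e-05). Akr1b1, an aldose reductase, was at or under 0 in all PCN rats and in 2 vehicle rats, and the call of its fall of 1.55 ± 0.51 (adjusted p = 0.043) was lost when any of 8 single arrays was left out.

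Glutathione transferases join glutathione to electrophiles. Of 15 measured, 8 rose and 1 fell, against 4.94% and 4.33% of all genes. Gsta3 had intensities of 2424, 1928, 1774, 1878 and 2550 in PCN rats 5511 to 5515, against 484, 310.2, 469, 159 and 252 in vehicle rats 1511 to 1515. Gsta3, an alpha-class enzyme active on aflatoxin epoxide, showed no overlap between groups. This gave a change of 2.69 ± 0.35 (adjusted p = 5.7e-09). Its 3 probe sets rose by 2.69 to 3.35. Gstm1 had intensities of 6761, 5592, 4587, 6696 and 7072 in PCN rats 5511 to 5515, against 2055, 1324, 1270, 1085 and 1637 in vehicle rats 1511 to 1515. Gstm1, of the mu class, was bright in both groups and changed by 2.06 ± 0.14 (adjusted p = 1.3e-19), the smallest p of the comparison. Gstm2 rose by 1.70 ± 0.16 and Gsta4, which acts on lipid aldehydes, by 1.45 ± 0.14. The microsomal enzyme Mgst3 went the other way: every PCN rat was at or under 223, against 311 or more in every vehicle rat, a change of -1.26 ± 0.17. Sequences within the alpha and mu classes are close, and their probe sets can share transcripts.

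NRF2 is a transcription factor that raises antioxidant, glutathione and NADPH-supplying genes. Of 19 measured genes known as its targets, 13 were higher and none lower, against 4.94% and 4.33% of all genes. This list, too, was chosen with earlier results of these data known. The median change over the list was 0.97, against 0.00 over all genes. The list shares Akr7a3, Ephx1, Nqo1, Ugdh, Abcc3 and Me1 with other lists. Gsr had intensities of 801, 450, 215, 1171 and 696 in PCN rats 5511 to 5515, against 194, 119, 59.2, 169.9 and 66.5 in vehicle rats 1511 to 1515. Glutathione reductase (Gsr) regenerates glutathione, and rat 5513 was again the lowest of the PCN rats. A change of 2.23 ± 0.34 (adjusted p = 4.4e-07) resulted. Gclc had intensities of 229, 149.5, 115, 399 and 399 in PCN rats 5511 to 5515, against 45.1, 87.4, 76.7, 43.4 and 55.9 in vehicle rats 1511 to 1515. Gclc, the rate-limiting enzyme of glutathione synthesis, was above all vehicle rats in each PCN rat. Its change was 1.70 ± 0.25 (adjusted p = 3.3e-07). Tkt, a transketolase of the pentose phosphate route, rose by 1.62 ± 0.17. Over the whole list, the median difference from the vehicle mean was 1.22, 0.71, 0.39, 1.27 and 1.12 in rats 5511 to 5515. The same median for the Cyp3a list was 1.79, 1.83, 2.05, 1.28 and 1.91. Rat 5513 thus had the lowest NRF2 median, while its median over the 4 Cyp3a genes was the highest, although it was not the highest rat for Cyp3a18 or Cyp3a23-3a1.

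**Figure D3:**
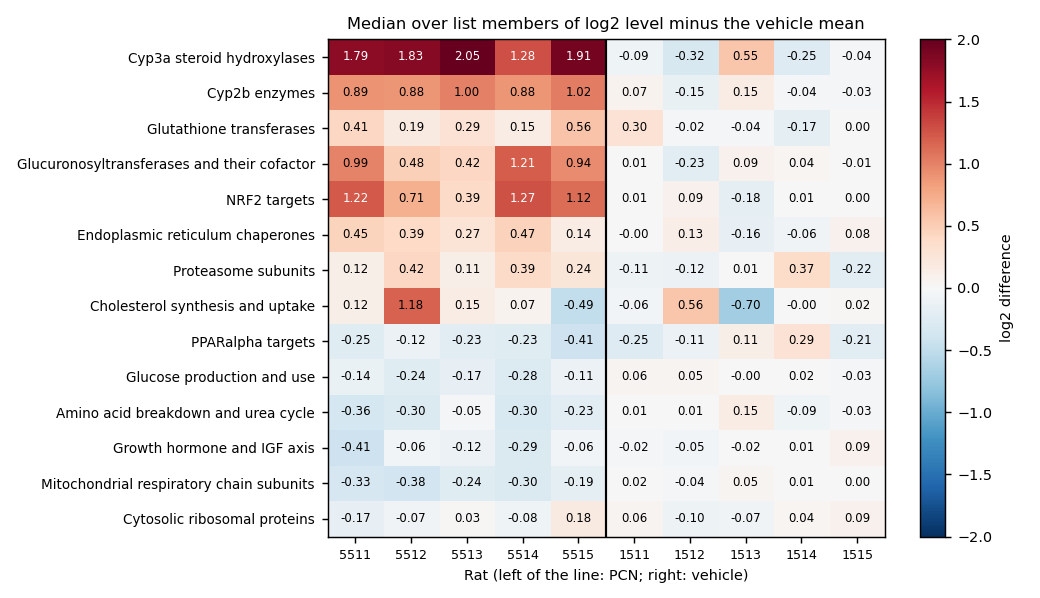
Median over the members of 14 gene lists of the log2 level minus the vehicle mean, for 5 PCN rats (left of the line) and 5 vehicle rats (right), with colour from -2 to 2. NRF2 targets span 0.39 to 1.27 and Cyp3a enzymes 1.28 to 2.05 in the PCN rats, and cholesterol synthesis genes vary from rat to rat in both groups.

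Glucuronosyltransferases attach glucuronic acid to drugs, steroids and bilirubin. Of 9 genes for these enzymes and their cofactor, 7 rose and none fell, against 4.94% and 4.33% of all genes. The median change was 1.03. Ugt1a5 had intensities of 906, 726, 894, 1298 and 1124 in PCN rats 5511 to 5515, against 284, 176, 234, 212 and 163 in vehicle rats 1511 to 1515. The groups were apart for Ugt1a5. For Ugt1a5 the difference was 2.13 ± 0.29 (adjusted p = 5.1e-08). Ugt2b1 had intensities of 1928, 1889, 1889, 2411 and 1963 in PCN rats 5511 to 5515, against 813, 857, 497, 487 and 575 in vehicle rats 1511 to 1515. Ugt2b1, which conjugates steroids and bile acids, stood apart in all rats as well, with a change of 1.65 ± 0.20 (adjusted p = 1.9e-09). Ugdh, which makes the cofactor UDP-glucuronic acid, rose by 1.04 ± 0.15 by its brighter probe set, and the other gave 0.41 and did not pass. Ugt2a1 rose by 1.30 ± 0.27 and Ugt2b37 by 1.03 ± 0.22.

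Sulfotransferases moved in both directions, with 1 of 10 higher and 2 lower, against 4.94% and 4.33% of all genes. Sult1a1 had intensities of 301, 889, 876, 161 and 256 in PCN rats 5511 to 5515, against 1973, 1342, 2307, 2018 and 1661 in vehicle rats 1511 to 1515. Sult1a1, which sulfates phenols, was lower in every PCN rat than in every vehicle rat, and rats 5512 and 5513 were nearest to the vehicle rats. The log2 difference was -2.15 ± 0.22 (adjusted p = 3.6e-12). Sult1b1, which acts on thyroid hormones and phenols, rose by 1.46 ± 0.22. Sult1c3 fell by 1.76 ± 0.39, and rat 5513, at 225, lay within the vehicle range. Sult2a1, a hydroxysteroid sulfotransferase, was bright and gave 0.02 ± 0.15 (adjusted p = 1.0), with a change of -0.04 when its probe sets were averaged.

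Among 17 hepatic transporters 5 rose and 1 fell, against 4.94% and 4.33% of all genes. Slco1a4 had intensities of 4025, 3463, 4119, 3199 and 4093 in PCN rats 5511 to 5515, against 1173, 966, 935, 570.2 and 1024 in vehicle rats 1511 to 1515. Slco1a4 takes up bile acids, cardiac glycosides and thyroid hormone from blood, and its groups did not overlap. The change was 2.03 ± 0.21 (adjusted p = 5.3e-12). Abcc3 had intensities of 321, 167, 64.6, 300.2 and 318 in PCN rats 5511 to 5515, against 38.8, 26.0, 25.7, 23.2 and 21.2 in vehicle rats 1511 to 1515. Abcc3 exports glucuronides back into blood. On the log2 scale Abcc3 changed by 2.37 ± 0.26 (adjusted p = 4.5e-11). Abcc2 had intensities of 1748, 1245, 935, 1272 and 1483 in PCN rats 5511 to 5515, against 674, 657, 480.3, 541 and 596 in vehicle rats 1511 to 1515. Abcc2, whose promoter is printed above, exports conjugates into bile and was higher in every PCN rat. Abcc2 thus differed by 1.14 ± 0.18 (adjusted p = 7.5e-07). Abcb1a, the P-glycoprotein of the bile canaliculus, was at 34.5 to 47.0 in PCN rats and at or near 0 in vehicle rats, a change of 1.79 ± 0.38. Slco1a1, a male-biased organic anion carrier, rose by 1.17 ± 0.15. The gene that fell was Abcb4, which moves phospholipid into bile.

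Few regulators were called. Of 35 nuclear receptors and partners, 1 rose and 1 fell, against 9.27% of all genes called. Ppara, the fatty acid receptor, rose by 0.45 ± 0.14 at low intensities, and Arnt, partner of the aryl hydrocarbon receptor, fell by 0.83 ± 0.23 while its other probe set gave 0.41 and did not pass. Nr0b2, the repressor also known as SHP, gave 0.19 ± 0.34 (adjusted p = 0.95).

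Of 19 bile acid genes and 15 cholesterol genes 1 each was higher, a share near the 4.94% of all genes called higher. In the bile acid list this was Hsd3b7, an enzyme of the ring modification, at 0.91 ± 0.30 with overlapping groups. Cyp7a1 had intensities of -6.49, 7.05, 111, -83.8 and 26.8 in PCN rats 5511 to 5515, against 157, 361, 76.0, -1.79 and 296 in vehicle rats 1511 to 1515. Cyp7a1, the rate-limiting enzyme of bile acid synthesis, had overlapping groups: vehicle rat 1514 was under 0 and lay among the PCN rats, and PCN rat 5513 lay among the vehicle rats. The change of -1.97 ± 0.68 did not pass (adjusted p = 0.054). Without rat 5513 it was -2.47 (adjusted p = 0.012) and without rat 1514 it was -2.71 (adjusted p = 0.0035), and its second probe set gave 0.05. The cholesterol gene was lanosterol synthase (Lss), which rose by 0.87 ± 0.26.

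Several lipid genes fell, where 4.33% of all genes were called lower and 4.94% higher. In lipogenesis and desaturation 4 of 17 fell and 1 rose. Cd36 had intensities of -4.13, 3.13, 23.6, 2.87 and 36.0 in PCN rats 5511 to 5515, against 20.6, 200.3, 207, 78.8 and 210 in vehicle rats 1511 to 1515. Cd36, a fatty acid carrier, was near 0 in 3 PCN rats, and vehicle rat 1511 lay within the PCN range. This gave a change of -2.33 ± 0.38 (adjusted p = 2.6e-06). Elovl5 had intensities of 1069, 1020, 1368, 790 and 730 in PCN rats 5511 to 5515, against 2565, 3290, 3657, 3447 and 2282 in vehicle rats 1511 to 1515. Elovl5, which lengthens polyunsaturated fatty acids, was lower in every PCN rat. A change of -1.61 ± 0.19 (adjusted p = 2.4e-10) resulted. Lipoprotein lipase (Lpl) fell by 0.60 ± 0.18 and hepatic lipase (Lipc) by 0.50 ± 0.13, whereas malic enzyme (Me1), which supplies NADPH, rose by 0.97 ± 0.24 in 3 of its 5 probe sets. Of 34 genes known as PPARα targets 6 fell and 2 rose, with a median of -0.25. Cyp4a1 had intensities of 309, 569, 387, 324 and 229 in PCN rats 5511 to 5515, against 1059, 1339, 2000, 2342 and 1182 in vehicle rats 1511 to 1515. Cyp4a1, which oxidises fatty acids at the omega end, was lower in all PCN rats. Its change was -2.07 ± 0.29 (adjusted p = 9.9e-08). The thioesterase Acot2 fell by 1.36 ± 0.34, the peroxisomal enzyme Ehhadh by 1.01 ± 0.24 and the electron carrier Etfdh by 0.67 ± 0.19. The peroxisomal thiolase Acaa1b rose by 1.06 ± 0.33 with overlapping groups. Cpt1a, the gate of mitochondrial fatty acid entry, gave -0.01 ± 0.32 (adjusted p = 1.0), a value near 0 whose sign turned with median scaling (0.05). Of 14 apolipoprotein genes 6 fell and 1 rose. Apoc3, an inhibitor of triglyceride clearance, was at 7310 or less in PCN rats, against 8841 or more in vehicle rats, a change of -0.56 ± 0.06. Apoa4 fell by 1.42 ± 0.28 and the lipoprotein receptor Scarb1 by 0.60 ± 0.19, while Apoa1, the main protein of high-density lipoprotein, rose by 0.58 ± 0.14.

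Among 35 genes of glucose production and use, 6 fell and none rose, against 4.33% and 4.94% of all genes. Pc had intensities of 269, 299, 306, 257 and 286 in PCN rats 5511 to 5515, against 666, 909.5, 724, 929 and 719 in vehicle rats 1511 to 1515. Pyruvate carboxylase (Pc), the first step from pyruvate to glucose, was in a narrow range in PCN rats and well under the vehicle rats. For Pc the difference was -1.42 ± 0.12 (adjusted p = 2.7e-15). Pck1, the next step of that route, gave 0.12 ± 0.34 (adjusted p = 1.0). Igfbp1 had intensities of -22.2, 286, 227, -20.2 and 156 in PCN rats 5511 to 5515, against 345, 439, 668, 590.3 and 1059 in vehicle rats 1511 to 1515. Igfbp1, an insulin-responsive secreted protein that binds insulin-like growth factors, varied widely among PCN rats, yet all were under the vehicle rats. The change was -2.89 ± 0.89 (adjusted p = 0.025). It was -2.32 without rat 5511 (adjusted p = 0.13), -2.31 without rat 5514 (0.14) and -2.68 without rat 1515 (0.072), and none of these passed. The glucokinase regulator Gckr fell by 0.83 ± 0.22, malate dehydrogenase (Mdh1) by 0.53 ± 0.13 and enolase (Eno1) by 0.51 ± 0.08. The call of Gckr was lost without rat 5514 (-0.60, adjusted p = 0.10).

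Of 42 genes of amino acid breakdown and the urea cycle 16 were lower and 1 higher, against 4.33% and 4.94% of all genes. Sds had intensities of -75.4, -245, 383, -183 and -308 in PCN rats 5511 to 5515, against 1015, 470.4, 2207, 143 and 1898 in vehicle rats 1511 to 1515. Serine dehydratase (Sds), which turns serine into pyruvate for glucose production, was under 0 in 4 PCN rats, and rat 5513 lay among the vehicle rats. The log2 difference was -4.72 ± 0.97 (adjusted p = 0.00023). Its 3 probe sets gave changes of -4.72 to -3.17, all of which passed, and the change of the brightest was the largest fall of the comparison. Cth had intensities of 719, 1516, 1436, 439 and 380 in PCN rats 5511 to 5515, against 1928, 2039, 1716, 2282 and 1784 in vehicle rats 1511 to 1515. Cth makes cysteine from cystathionine, and no PCN rat reached the lowest vehicle rat. The change was -1.32 ± 0.22 (adjusted p = 5.4e-06). Histidine ammonia-lyase (Hal) fell by 1.12 ± 0.20, glycine N-methyltransferase (Gnmt) by 1.07 ± 0.23 and glutamine synthetase (Glul) by 1.02 ± 0.16, the last in all 4 of its probe sets. Of the urea cycle, Ass1 fell by 0.94 ± 0.14 and Cps1 by 0.38 ± 0.06. The gene called higher in this list was arginase, Arg1.

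Sex-dependent genes moved in both directions. Of 13 male-biased genes 5 rose (Cyp3a18, Cyp3a2, Cyp2c11, Slco1a1 and Cyp2a2) and Sult1c3 fell, and of 15 female-biased genes 6 fell and none rose, against 4.94% of all genes called higher and 4.33% called lower. The median change was 0.16 over the male-biased and -0.15 over the female-biased list. Cyp17a1 had intensities of 4.21, 5.02, -6.59, -1.84 and 1.12 in PCN rats 5511 to 5515, against 23.5, 51.7, 172, 190 and 49.0 in vehicle rats 1511 to 1515. Cyp17a1, a steroid hydroxylase and lyase, was near 0 in all PCN rats. On the log2 scale Cyp17a1 changed by -2.36 ± 0.41 (adjusted p = 1.2e-05). The prolactin receptor (Prlr) fell by 1.43 ± 0.36 and the growth hormone receptor (Ghr) by 1.15 ± 0.21. Together with Igfbp1 these were the 3 that fell among 21 genes of the growth hormone axis, where none rose. Dio1 had intensities of 360.4, 165, 300.5, 196 and 160.3 in PCN rats 5511 to 5515, against 546, 813, 549.5, 465 and 716 in vehicle rats 1511 to 1515. Dio1, the deiodinase that activates thyroid hormone, was lower in every PCN rat. Dio1 thus differed by -1.37 ± 0.20 (adjusted p = 1.9e-07). With its probe sets averaged Dio1 did not pass (adjusted p = 0.068). Serpina7 had intensities of 5.53, 90.2, 205, -18.2 and 0.243 in PCN rats 5511 to 5515, against 609, 338, 688, 233 and 708 in vehicle rats 1511 to 1515. Serpina7, thyroxine-binding globulin, the plasma carrier of thyroid hormone, was at or near 0 in 3 PCN rats. This gave a change of -3.54 ± 0.57 (adjusted p = 2.2e-06). With Slco1a4 and Me1 higher, 2 of 12 genes of thyroid hormone transport and action rose and 2 fell.

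Several secreted plasma proteins fell by small steps. Of 30 acute phase genes 6 fell and 1 rose, against 4.33% and 4.94% of all genes. The kininogen Kng2 fell by 0.54 ± 0.09, Itih3 by 0.51 ± 0.09, the pentraxin Apcs by 0.42 ± 0.08 and fibrinogen beta (Fgb) by 0.38 ± 0.08. The lipopolysaccharide-binding protein Lbp rose by 0.93 ± 0.25. Of 27 complement and coagulation genes 3 fell and 2 rose, against 4.33% and 4.94% of all genes. The falls of Fgb and Fga are counted in both lists. Protein S (Pros1) rose by 0.58 ± 0.10 and protein C (Proc) by 0.32 ± 0.07, while factor X (F10) fell by 0.41 ± 0.13. A fibrinogen alpha probe set (Fga) fell by 0.26 ± 0.06. With median scaling Apcs, Fgb, Fga, F10 and Proc did not pass, and Kng2 and Lbp did not with array 1003 kept. Fgb also did not pass with its probe sets averaged, so its call rests on the probe set read.

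In the secretory pathway 6 of 18 endoplasmic reticulum chaperone genes rose and none fell, against 4.94% and 4.33% of all genes. Erp29 rose by 0.80 ± 0.19, the prolyl isomerase Fkbp2 by 0.63 ± 0.12 and the disulfide isomerases Pdia6 and P4hb by 0.48 ± 0.12 and 0.41 ± 0.09. Of 25 proteasome subunits 6 rose and 1 fell, against the same shares of all genes. The risers changed by at most 0.59 (Psmd1), and the immunoproteasome subunit Psmb8 fell by 0.79 ± 0.25. Vehicle rat 1514 was higher than the other vehicle rats in Psmd1, at 955. None of 16 heat shock genes and none of 10 ATF4-responsive genes passed. Of 32 cell cycle genes 2 rose, a share near the 4.94% of all genes, namely Stmn1, which destabilises microtubules, by 0.74 ± 0.24, and Mdm2. Mdm2 had intensities of 587, 352, 282, 805 and 631 in PCN rats 5511 to 5515, against 51.5, 88.5, 65.1, 82.1 and 73.1 in vehicle rats 1511 to 1515. Mdm2, the ubiquitin ligase of p53, was far higher in each PCN rat than in any vehicle rat by its brightest probe set. A change of 2.56 ± 0.21 (adjusted p = 1.9e-16) resulted. Of its 4 probe sets 2 passed, and the others gave changes as low as 0.00.

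Of 33 measured subunits of the mitochondrial respiratory chain, 12 were lower and none higher, against 4.33% and 4.94% of all genes. The list median was -0.29. Cytochrome c1 (Cyc1) fell by 0.52 ± 0.12, Ndufb5 of complex I by 0.44 ± 0.12, and Cox6a1 and Cox6b1 of cytochrome oxidase by 0.41 ± 0.10 and 0.39 ± 0.09. With its probe sets averaged Cox6a1 did not pass (adjusted p = 0.29). The list median was below the vehicle mean in all 5 PCN rats, at -0.38 to -0.19, against -0.04 to 0.05 in vehicle rats. None of 36 cytosolic ribosomal protein genes passed, with a median of -0.03. No clock gene of 9 passed either, where 9.27% of all genes were called, but their median was 0.29. Their summed intensity was 1254 to 2118 in PCN rats and 635 to 2064 in vehicle rats.

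Several of the largest changes lay outside these lists. Hdc had intensities of 62.2, 67.3, 134, 242 and 206 in PCN rats 5511 to 5515, against 23.6, 7.26, 17.2, -1.86 and 6.44 in vehicle rats 1511 to 1515. Hdc, which makes histamine from histidine, was low in vehicle rats and higher in all PCN rats. Its change was 2.46 ± 0.33 (adjusted p = 1.7e-08). Ttc38 had intensities of 238, 187, 218, 284 and 168 in PCN rats 5511 to 5515, against 57.6, 45.7, 9.26, 6.44 and 17.96 in vehicle rats 1511 to 1515. Ttc38, a tetratricopeptide repeat protein, was also apart between groups. For Ttc38 the difference was 2.58 ± 0.48 (adjusted p = 4.9e-05). Nptn, an adhesion molecule, rose by 2.47 ± 0.44, while its second probe set gave 0.22 and did not pass. Grin2a and Ptpn23 rose by 2.20 ± 0.56 and 2.17 ± 0.23, each by 1 of 2 probe sets, and in vehicle rats these were at or under 0 apart from rat 1511 in Grin2a. Syt5, a synaptotagmin, rose by 3.04 ± 0.97, but PCN rat 5513 was under 0 and the call was lost without any of 9 of the 10 arrays. Spink1l rose by 2.17 ± 0.46 with overlapping groups. Avpr1a had intensities of 93.7, 107, 269, 41.6 and 64.9 in PCN rats 5511 to 5515, against 318, 469, 389, 484 and 445 in vehicle rats 1511 to 1515. Avpr1a, the vasopressin receptor of hepatocytes, was lower in all PCN rats. The log2 difference was -1.94 ± 0.31 (adjusted p = 1.2e-06). Crot, which makes carnitine esters in peroxisomes, fell by 1.98 ± 0.34, the phosphatase Mtmr7 by 2.04 ± 0.45, the cytokine receptor Lifr by 1.80 ± 0.49 and the ubiquitin-conjugating enzyme Ube2g2 by 2.11 ± 0.61. Ube2g2 was at or under 0 in all PCN rats and lost its call without rat 1513 (-1.80, adjusted p = 0.073). Acsm2, a medium-chain acyl-CoA synthetase, fell by 1.76 ± 0.60, with a p at the threshold and a call that was lost without any of 8 single arrays. Leaving out at least 1 of the 10 arrays also ended the calls of Acaa1b, Alad, Arnt, Atp5pd, Cyp2d2, Etfdh, F10, Hsd3b7, Lbp, Lpl, Lss, Pdgfra, Ppara, Ppox, Psmb8, Psmc2, Psmc4, Psmd1, Psmd11, Rnase1, Scarb1, Ssr3 and Stmn1. Median scaling ended the calls of Acsm2, Akr1b1, Alad, Apcs, Apoc3, Atp5pd, Cps1, Cyp2b3, Cyp2d2, Etfdh, F10, Fga, Fgb, Lipc, Mdh1, Ppox, Proc, Psmc4, Psmd1, Scarb1 and Ssr3. Averaging the probe sets of a gene ended the calls of Arnt, Cox6a1, Cyb5a, Cyp2b3, Dio1, Etfdh, Fgb, Lpl, Lss, Pdgfra, Psmd1, Scarb1 and Ssr3. Keeping array 1003 ended those of Acaa1b, Acsm2, Akr1b1, Alad, Atp5pd, Cps1, Cyb5a, Cyc1, Cyp2b3, Cyp2c22, Cyp2d2, Fkbp2, Flt1, Ggt1, Hsd3b7, Kng2, Lbp, Lipc, Lpl, Mdh1, Mthfd1, Ppara, Psmb8, Psmc2, Scarb1, Ssr3 and Ugdh. With only the compared groups in the fit the calls lost were those of Acaa1b, Acot2, Acsm2, Akr1b1, Alad, Apcs, Apoa4, Arnt, Ass1, Atp5pd, Cd36, Cnksr3, Cth, Cyp2b3, Cyp2d2, Ehhadh, Etfdh, F10, Fga, Flt1, Fmo1, Gckr, Ggt1, Gnmt, Hsd3b7, Igfbp1, Lifr, Lipc, Lss, Mdh1, Mtmr7, Pdgfra, Ppox, Prlr, Psmb8, Psmc2, Psmc4, Psmd1, Psmd11, Rnase1, Scarb1, Sds, Spink1l, Ssr3, Sult1c3, Syt5, Ube2g2, Ugt2a1 and Vwa8.

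Markers of other liver cell types are set beside the 4.94% of all genes called higher and the 4.33% called lower. Lists this short cannot show by their counts that the share of a cell type stayed the same. None of 12 Kupffer cell and macrophage markers passed, with a median of -0.26 and a summed intensity of 2045 to 3055 in PCN rats and 2391 to 3717 in vehicle rats, and Csf1r at or under 0 in both groups. In 9 of the 12 the sign was negative, and the list median against the vehicle mean was -0.50 to -0.15 in PCN rats and -0.25 to 0.13 in vehicle rats. Of 8 endothelial markers 1 rose, Flt1 (0.70 ± 0.23), whose change was 0.13 (adjusted p = 0.81) without vehicle rat 1515, in which its intensity was -599. The endothelial sums were 684 to 890.4 in PCN rats and 657 to 850.2 in vehicle rats, with Vwf at or under 0. Of 16 stellate cell markers 1 fell, Pdgfra (-0.34 ± 0.09), with sums of 3789 to 4952 in PCN rats and 3037 to 5166 in vehicle rats and Des and Tagln at or under 0. Among 8 bile duct markers Epcam rose by 0.78 ± 0.14, and Ggt1 passed with a change of 0.06 ± 0.01 while its values were at 1.99 or less in every rat. Of the 8, 4 had a positive and 4 a negative sign. The lowest was the transcription factor Onecut1, at 117 to 413 in PCN rats and 476 to 1005 in vehicle rats, a change of -1.33 ± 0.57 that did not pass (adjusted p = 0.17). The bile duct sums, which include Onecut1, were 558 to 954 in PCN rats and 938 to 1413 in vehicle rats, with little overlap. Their medians were 789 and 992, and how far Onecut1 alone makes up this gap was not tested. No lymphocyte marker of 14 and no blood cell marker of 9 passed, with sums of 514 to 746 in PCN rats and 575 to 675 in vehicle rats for the first and of 4179 to 8209 in PCN rats and 3906 to 8454 in vehicle rats for the second. Cd2, Cd3d, Prf1 and Epor were at or under 0 in both groups. The part of these cell types in the results above was not tested.

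The effect of PCN at 5 days was then compared between females and males. The difference of the effects, taken over 4 separate groups of 5 rats, passed for 27 of 4736 genes (0.57%), while 495 had an unadjusted p under 0.05. Cyp3a18 averaged 1309 ± 90.4 in PCN females and 96.4 ± 49.2 in vehicle females, and 2605 ± 148 in PCN males and 1053 ± 254 in vehicle males (SD, n = 5 each). Vehicle males were well above vehicle females, and the change in males was 1.33 ± 0.29. The female effect exceeded the male one by 2.34 ± 0.40 (adjusted p = 0.00013), a difference that passed under all alternatives. Cyp3a2 averaged 77.5 ± 35.6 in PCN females and 2.28 ± 11.2 in vehicle females, and 3157 ± 341 in PCN males and 2914 ± 313 in vehicle males (SD, n = 5 each). Vehicle males were already far above any PCN female, and their change was 0.12 ± 0.34. The difference was 2.09 ± 0.48 (adjusted p = 0.011). It ran from 0.91 to 5.13 over the alternatives and did not pass with a pseudocount of 64 or with array 1003 kept. Sult1a1 averaged 496 ± 356 in PCN females and 1860 ± 369 in vehicle females, and 1567 ± 196 in PCN males and 2368 ± 130.4 in vehicle males (SD, n = 5 each). The difference of the effects was -1.56 ± 0.32 (adjusted p = 0.0023), with a change of -0.60 ± 0.22 in males. Serpina7 averaged 56.6 ± 93.0 in PCN females and 515 ± 216 in vehicle females, and 143 ± 88.3 in PCN males and 124 ± 54.4 in vehicle males (SD, n = 5 each). For this plasma carrier of thyroid hormone the effect was -3.54 ± 0.57 in females and 0.03 ± 0.57 in males, a difference of -3.57 ± 0.81 (adjusted p = 0.0099).

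Other genes with a positive difference of the female from the male effect were Ttc38 (2.83 ± 0.68), the ribonuclease Rnase1 (2.59 ± 0.55), the ATP-gated channel P2rx6 (2.19 ± 0.52) and Hdc (1.85 ± 0.46). The changes in females were 2.58 for Ttc38, 1.35 for Rnase1 and 1.34 for P2rx6. These were less than the differences, so the estimated changes in males were negative and make up part of them. Whether the changes in males differ from 0 was not tested. Rnase1 and P2rx6 were dim, with means of 39.8 and 39.7 in PCN females. Positive differences also passed for Gstm1 (1.21 ± 0.20), Abcc3 (1.64 ± 0.37), Hsd11b1 (1.73 ± 0.39), Ptpn23 (1.75 ± 0.32) and Cyp2c11 (1.36 ± 0.34). Negative differences passed for Apoc3 (-0.48 ± 0.08), Aqp9, the glycerol channel of hepatocytes (-0.97 ± 0.21), Vwa8 (-0.96 ± 0.16), Cnksr3 (-0.91 ± 0.22) and Grip2 (-1.03 ± 0.25). The changes in females were -0.59 for Vwa8, -0.71 for Cnksr3 and -0.31 for Grip2, the last of which did not pass. For these genes the estimated change in males was positive, which was not tested against 0 either. Aqp9 fell in females by 1.66 ± 0.15, with a change of -0.69 ± 0.15 in males. For other genes the difference did not pass: Cyp2b2 gave 3.17 ± 0.29 in females and 2.48 ± 0.29 in males, Gsta3 2.69 ± 0.35 and 3.15 ± 0.35, Alas1 1.82 ± 0.25 and 2.02 ± 0.25, and Sds -4.72 ± 0.97 and -4.94 ± 0.97. The calls of Hdc, Ttc38, Grip2 and Cnksr3 were lost without any of 9, 5, 4 and 2 single arrays. With the 4 groups fitted alone 7 genes passed, all with a positive difference, and with array 1003 kept 17 passed. The count was 18 without rat 5514, 42 without rat 5513 and 46 without rat 1511.

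**Figure D4:**
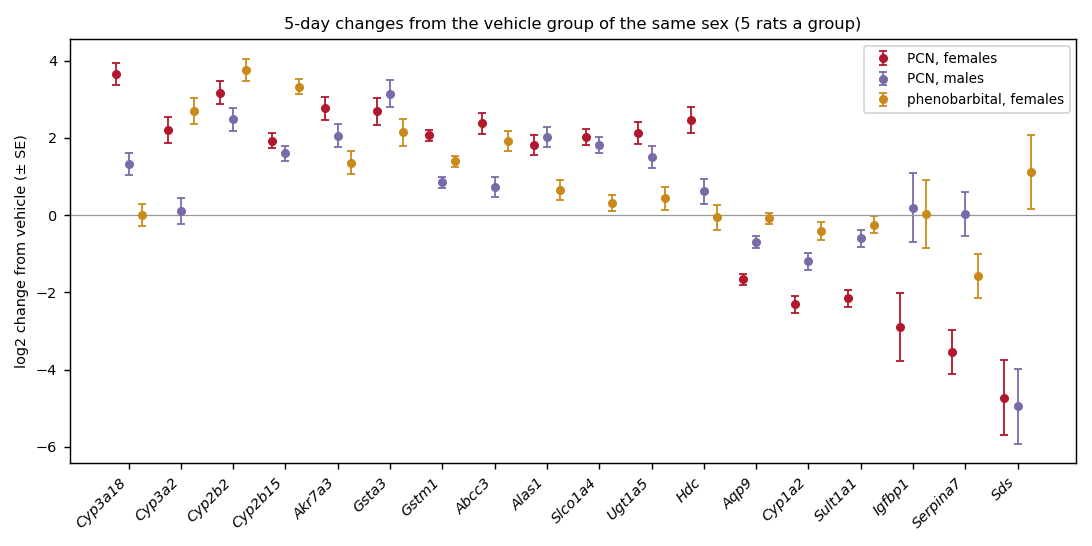
Log2 change from the vehicle group of the same sex at 5 days (± SE, 5 rats a group) for 18 genes after PCN in females (red), PCN in males (purple) and phenobarbital in females (ochre, which shares the vehicle group with red). Cyp3a18 lies at 3.67, 1.33 and 0.01 in that order, and Serpina7 at -3.54, 0.03 and -1.56.

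The effect after 5 doses was next set against that 24 h after a single dose. The difference between these effects passed for 32 genes (0.676%), while 418 had an unadjusted p under 0.05. Several induced genes were already high after 1 dose. For Cyp3a23-3a1 the change was 1.94 ± 0.17 at 6 h, 2.18 ± 0.17 at 24 h and 1.34 ± 0.17 at 5 days, for Cyp2b2 it was 2.08 ± 0.29, 2.63 ± 0.29 and 3.17 ± 0.29, and for Alas1 1.48 ± 0.25, 1.46 ± 0.25 and 1.82 ± 0.25 in the same order. None of these 3 differences between 5 days and 24 h passed. Akr7a3 gave 0.53 ± 0.29 at 6 h, 1.09 ± 0.29 at 24 h and 2.77 ± 0.29 at 5 days, and the step from 24 h to 5 days was 1.67 ± 0.41 (adjusted p = 0.028). Abcc3 gave a step of 1.62 ± 0.37, Cyp2b15 of 1.27 ± 0.27 and Hsd11b1, the enzyme that regenerates active glucocorticoid, of 1.78 ± 0.39, with -0.26 ± 0.27 at 24 h. Mthfd1, of folate metabolism, and Ptpn23 also had positive steps, of 1.07 ± 0.27 and 1.67 ± 0.32.

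Cyp1a2 averaged 1993 ± 554 in PCN females and 2382 ± 604 in vehicle females at 24 h, and 502 ± 151.5 in PCN females and 2489 ± 492 in vehicle females at 5 days (SD, n = 5 each). The change of Cyp1a2 was -0.11 ± 0.22 at 6 h, -0.27 ± 0.22 at 24 h and -2.31 ± 0.22 at 5 days, a step of -2.04 ± 0.31 (adjusted p = 2.1e-05) that passed under all alternatives. Aqp9 had a step of -1.18 ± 0.21, Elovl5 of -1.19 ± 0.27, Gulo, the last enzyme of vitamin C synthesis in rats, of -1.24 ± 0.28, Apoc3 of -0.55 ± 0.08, Apoa4 of -1.54 ± 0.40 and glycogen synthase Gys2 of -1.47 ± 0.35. Gys2 did not pass at 5 days itself, at -0.42 ± 0.25. The call of the Akr7a3 step was lost without any of 6 single arrays, and those of Abcc3, Mthfd1, Apoa4, Gys2 and Gulo without any of 3, 10, 15, 5 and 3. Of the NRF2 target list 4 of 19 had a positive step that passed and none a negative one (0.359% and 0.317% of all genes), and the list medians of the change were 0.27 at 6 h, 0.37 at 24 h and 0.97 at 5 days. The respiratory chain medians were -0.08, -0.01 and -0.29 in the same order, with 2 negative steps that passed. With the 4 groups fitted alone 6 genes passed, with median scaling 20 and with array 1003 kept 11. The count was 20 without rat 5514, 21 without rat 1513 and 45 without rat 5513.

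**Figure D5:**
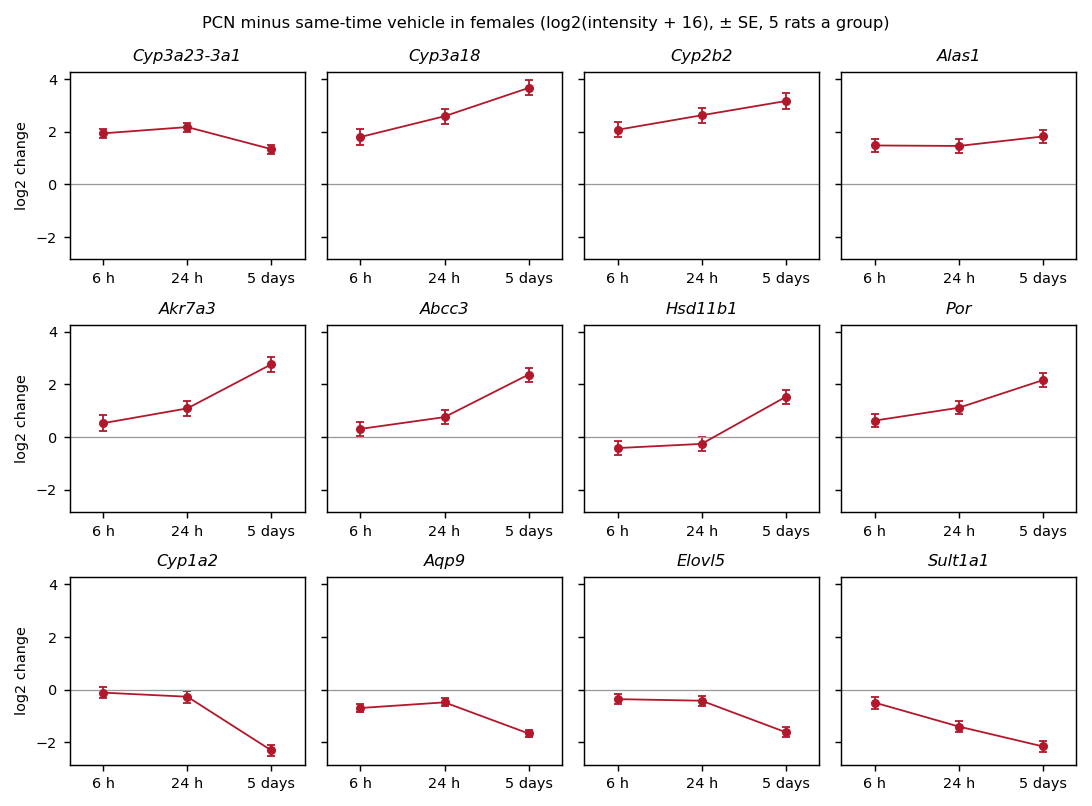
Log2 change of PCN females from the vehicle females of the same time (± SE, 5 rats a group) for 12 genes at 6 h and 24 h after 1 dose and 24 h after 5 daily doses. Cyp3a23-3a1 and Alas1 are high from 6 h, whereas Akr7a3, Abcc3 and Hsd11b1 are highest and Cyp1a2, Aqp9 and Elovl5 lowest at 5 days.

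PCN and phenobarbital were compared directly in females at 5 days, at the same dose of 100 mg/kg. Of 4736 genes 371 differed (7.83%). Cyp3a18 averaged 1309 ± 90.4 in PCN females and 95.8 ± 40.8 in phenobarbital females (SD, n = 5 each). Against vehicle, phenobarbital gave 0.01 ± 0.29 for Cyp3a18, and the difference between the compounds was 3.66 ± 0.29 (adjusted p = 2.9e-16). Hdc, Nptn and Ttc38 were also higher after PCN, by 2.52 ± 0.33, 2.25 ± 0.44 and 2.22 ± 0.48, as were the cardiac troponin gene Tnnt2 (2.06 ± 0.31) and the glycerol phosphate dehydrogenase Gpd1 (2.84 ± 0.87). Cyp2b15 averaged 875 ± 86.2 in PCN females and 2313 ± 241 in phenobarbital females (SD, n = 5 each). Cyp2b15 was lower after PCN than after phenobarbital, by 1.39 ± 0.19 (adjusted p = 1.4e-07). Cyp2b2 averaged 4203 ± 647 in PCN females and 6272 ± 269 in phenobarbital females (SD, n = 5 each). Every phenobarbital rat was above every PCN rat in Cyp2b2. Even so, the difference of -0.59 ± 0.29 did not pass (adjusted p = 0.29), with a spread estimated over all 18 groups. The difference of Cyp3a23-3a1, at 0.11 ± 0.17 (adjusted p = 0.93), did not pass either.

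Genes lower after PCN than after phenobarbital included Sds (-5.84 ± 0.97), Slc6a9, a glycine transporter (-3.995 ± 0.45, at or under 0 in all PCN and vehicle rats), Igfbp1 (-2.93 ± 0.89), the desaturase Scd (-2.80 ± 0.68), Sult1c3 (-2.60 ± 0.39) and Lifr (-2.33 ± 0.49). By list, 9 of 19 NRF2 targets were higher after PCN and none lower, and 10 of 25 proteasome subunits were higher and 1 lower, against 4.18% of all genes higher and 3.65% lower. Of 42 amino acid genes 12 were lower after PCN and 1 higher, of 35 glucose genes 11 were lower and none higher, and of 15 cholesterol genes 7 were lower and none higher. Against vehicle the median of the cholesterol list was 0.21 after PCN, with 1 gene called higher and none lower, and 0.89 after phenobarbital. Against the vehicle group that both share, Slco1a4 gave 2.03 ± 0.21 after PCN and 0.32 ± 0.21 after phenobarbital, Alas1 1.82 ± 0.25 and 0.66 ± 0.25, Gclc 1.70 ± 0.25 and -0.01 ± 0.25, and Ephx1 1.60 ± 0.15 and 1.53 ± 0.15. The direct differences passed for Slco1a4, Alas1 and Gclc, at 1.71 ± 0.21, 1.16 ± 0.25 and 1.72 ± 0.25, and not for Ephx1, at 0.07 ± 0.15. With only the compared groups in the fit, 161 genes differed. The calls of Gpd1 and Igfbp1 were lost without any of 7 and 4 single arrays.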

How the data were processed

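Total liver RNA of single rats was measured on single-colour Affymetrix arrays. The deposited values are linear intensities, some of them below 0, and how the authors made them is not given in the sources used here. Controls (59 probe sets) were left out, and 8740 were tested, of which 7006 carry 1 gene symbol in the platform annotation, covering 4736 genes, 308 carry several and 1426 none. The 89 arrays of 18 groups (rat 1003 left out) were quantile normalised together, negative values set to 0, and log2(value + 16) of the deposited intensities was computed. A model of group means came from lmFit and eBayes of limma 3.58.1 (R 4.3.3), with Benjamini-Hochberg adjustment over the 8740 probe sets and a threshold of 0.05. Tables and figures used Python 3.11.15, and the fit was tested on simulated data. Every array is 1 rat, and the number of rats, 5 per group, limits the precision.

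Named were fixed key genes, the 15 largest rises and 15 largest falls that passed, up to 5 passing members of each of 40 lists by size of change, and, in each other comparison, the 6 largest differences in each direction. A few list members outside this rule (Arg1, Abcb4, Onecut1) were named after their values were seen. The members and lists were chosen with earlier results of these data known. Ugt1a1, Gsta2, Nr1i2, Nr1i3 and G6pc1, among the key genes, were not analysed here, and some other key genes are not reported here. Alternatives were other pseudocounts, median scaling, a filter on dim probe sets, trend and robust moderation, and the array 1003 kept. Further ones were only the groups compared, those groups also normalised alone, each array left out, and the probe sets of a gene averaged.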

Additional observations from a re-analysis of the deposited data

Results flagged for a closer look

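A single rat stood apart from the other 4 of its group, by Dixon's criterion with a critical value of 0.71, in 18 of 286 groups of 5 (6.29%). The criterion was applied to the log2 levels, with negative intensities raised to 0. In Abcb1a, Cyp3a2, Grin2a and Sds the other 4 rats were all under 0 and so tied. Any rat above 0 then passes the critical value, however small the gap. A group without any range cannot pass, so the share cannot be set against chance. PCN rat 5513 was the high one in 4 of these, with an intensity of 403 for Acsm2, 383 for Sds, 225 for Sult1c3 and 173 for Ugt2a1. Other PCN rats that stood apart were 5515 in Rnase1 (4.44) and Sult1b1 (1242), 5514 in Ugt2b1 (2411) and 5512 in Vwa8 (219). Among vehicle rats, 1513 stood apart in Abcb1a (2.08), Cyp2b3 (1394), Cyp3a2 (22.1) and Mdh1 (2263), and 1512 in Atp5pd (874) and Grip2 (61.6). Vehicle rat 1511 stood apart in Grin2a (23.6) and Lifr (9.77), 1514 in Psmd1 (955) and 1515 in Flt1 (-598.6).

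The PCN effect differed between females and males, by the test of the difference itself, with log2 differences of 2.83 for Ttc38, 2.59 for Rnase1, 2.34 for Cyp3a18, 2.19 for P2rx6, 2.09 for Cyp3a2 and 1.85 for Hdc. Negative differences were -3.57 for Serpina7, -1.56 for Sult1a1, -1.03 for Grip2, -0.97 for Aqp9, -0.96 for Vwa8 and -0.91 for Cnksr3. Between 5 days and 24 h the effect differed by 1.78 for Hsd11b1, 1.67 for Akr7a3, 1.67 for Ptpn23, 1.62 for Abcc3, 1.27 for Cyp2b15 and 1.07 for Mthfd1, and by -2.04 for Cyp1a2, -1.54 for Apoa4, -1.47 for Gys2, -1.24 for Gulo, -1.19 for Elovl5 and -1.18 for Aqp9.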

How the results depend on the processing

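The count of genes changed by PCN in females at 5 days, 439, lay between 331 and 442 with other pseudocounts, median scaling, a filter on dim probe sets, other moderation or the array 1003 kept. It was 256 with only the groups compared in the fit and 251 with those groups also normalised alone, and 351 (without rat 5514) to 467 (without rat 5513) with an array left out. The sex difference passed for 27 genes, 17 with the array 1003 kept, 7 with only the groups compared and 7 with them normalised alone, and 18 (without rat 5514) to 46 (without rat 1511) with an array left out, with 42 without rat 5513. The time difference passed for 32 genes, 20 with median scaling, 11 with the array 1003 kept, 6 with only the groups compared and 3 with them normalised alone, and 20 (without rat 5514) to 45 (without rat 5513) with an array left out, with 21 without rat 1513. PCN and phenobarbital differed for 371 genes, 161 with only the groups compared and 163 with them normalised alone, and 254 (without rat 5514) to 385 (without rat 5513) with an array left out. The cause of these moves was not tested. Of 131 named genes that passed in females, 64 passed under every alternative run, 67 lost the call under at least 1, and 30 lost it with an array left out. Of 12 sex differences, 12 time differences and 12 phenobarbital differences named, 1, 1 and 6 passed under every alternative. Of 640 list counts 552 stayed within 1.5 times. The sign turned for Cpt1a, at 0.0537 with median scaling and between -0.1302 and 0.1314 with an array left out, and for Sult2a1, at -0.0436 with its probe sets averaged and between -0.0445 and 0.0628 with an array left out. No paired analysis was possible because rat numbers identify single animals and are not shared between groups. Intensity near the floor limits dim genes, whose changes are understated.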
